A study of Mus musculus with 12 samples.

Results

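Of the 35556 probe sets measured in mouse medial prefrontal cortex, 12457 (35%) carried no gene symbol in the platform annotation, and these were compared between offspring of poly(I:C)-treated and control mothers. They were taken by the absence of a symbol alone, with no use of a measured value, and were divided by brightness at the median of all probe set means over the 12 animals (5.18 on the log2 scale). Of the unannotated probe sets, 3995 (32.1%) lay above that median and 8462 (67.9%) at or below it. The other 23099 probe sets carried at least 1 symbol. The unannotated probe set just above the dividing line was 10342711, with a mean of 5.181 and a log2 difference (poly(I:C) minus control) of 0.52, and the one just below was 10341445, with a mean of 5.179 and a difference of 0.25.

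The animals were C57BL/6N mice sampled at an age of 12 weeks, 6 whose mothers had received poly(I:C) intravenously on gestation day 17 at 5 mg/kg and 6 whose mothers had received the control injection. Poly(I:C) is a synthetic double-stranded RNA that imitates viral RNA and raises an innate immune response in the mother, so the animals measured are the offspring and were not injected themselves. RNA of each animal was hybridised to 1 array of the Mouse Gene 1.1 ST design. The labels record no litter, sex or array strip, so each p-value reflects only how these animals vary, and littermates may be among them. Sample numbers in the labels run from 1 to 12 for controls and from 25 to 33 for poly(I:C), and the sources used here give no run order.

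A whole-transcript array of this kind reads each gene with probes spread along its exons. Beside the gene probe sets it carries others with no gene name, among them control probe sets on exons and introns of constantly expressed genes, hybridisation and background controls, and probe sets placed on RNAs that the annotation does not name. A signal over an intron can come from RNA not yet spliced, and introns of many host genes also hold small nucleolar RNAs, short nuclear RNAs that guide chemical modification of ribosomal RNA. The annotation used here names no category and does not say which unannotated probe sets lie in introns, so whether any of them reads unspliced RNA was not tested. No sequence or position of an unannotated probe set was used here, and each is given by its identifier.

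Array medians lay between 5.145 and 5.206, and correlations between arrays ranged from r = 0.9944 to 0.9978 over all probe sets, which are not independent replicates. The labelled tissue was checked against 4 measured markers of cortical excitatory neurons, which stood at log2 levels of 8.01 to 11.39. The mean marker levels of other cells differed between the groups in part. No marker of inhibitory neurons, astrocytes, microglia or blood (1 gene measured) passed the threshold. Their median log2 differences were -0.057, 0.0024, -0.022 and -0.0155, in that order. Myelin markers, 7 of 7 with lower means after poly(I:C) and 2 of 7 past the threshold, had a mean level per animal of 7.88 to 8.24 in controls and 7.39 to 7.91 after poly(I:C). Markers of striatal neurons, which lie beside the dissected tissue, were measured for 5 of 7 genes, all with lower means and none past the threshold. Their mean level per animal was 6.595 to 7.45 in controls, with controls 5 and 6 at 7.45 and 7.25, and 6.47 to 6.70 after poly(I:C). The part of either in the results was not tested. In bulk tissue, fewer cells of a type and less RNA per cell cannot be told apart.

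More unannotated probe sets were higher than lower after poly(I:C). Of 12457, 115 rose and 43 fell at a Benjamini-Hochberg adjusted p under 0.05 in a limma fit over all 35556 probe sets, which is 158 called (1.27%) and 12299 not called. Over all probe sets the same fit called 414, or 1.16%, with 296 (0.832%) higher and 118 (0.332%) lower, so the share of unannotated probe sets called lay near that of the whole table. The 2 groups of animals did not overlap, every poly(I:C) animal being above every control, at 112 unannotated probe sets, and the reverse held at 68. Over all probe sets 512 (1.44%) were higher without overlap and 215 (0.605%) were lower. The called unannotated probe sets had a median absolute log2 difference of 0.44, against 0.22 for the 256 called annotated ones, and 33 of 158 differed by at least 1.5-fold, against 16 of 256. The unannotated probe sets were also noisier, with a median within-group SD of 0.12 against 0.0695. A noisier probe set must differ by more to pass, so these sizes do not compare the 2 classes evenly.

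Bright and dim probe sets were then counted apart. Above the array median, 56 unannotated probe sets rose and 17 fell of 3995 (1.83% called), and 173 annotated ones rose and 59 fell of 13783 (1.68%). At or below it, 59 unannotated rose and 26 fell of 8462 (1%), and 8 annotated rose and 16 fell of 9316 (0.258%). These shares were not tested against each other. The median log2 difference of the unannotated was 0.024 above the median and -0.0001 at or below it. The same medians were 0.022 and -0.019 for annotated probe sets, and 0.022 and -0.012 over all. The median of the bright probe sets was thus similar in both classes. It was small beside the median within-group SD of a single probe set (0.12 unannotated, 0.069 annotated). That SD is not the spread of a median over many probe sets. Each animal's median deviation from the probe set means varied less. For bright unannotated probe sets its SD was 0.013 among control and 0.0175 among poly(I:C) animals, and the group means differed by 0.021. For bright annotated ones these values were 0.012, 0.012 and 0.0205. The animals of both groups overlapped in either class. The median difference of the bright unannotated probe sets was 0.0017 after a further quantile normalisation of the arrays.

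The identifiers divided the unannotated probe sets into 2 blocks with different counts of calls, a split that was chosen after values had been seen but is defined by the annotation alone. The lowest identifier with a symbol was 10344622. Below it lay one unbroken block of 6616 unannotated probe sets, from 10338001 to 10344620, and the other 5841 lay scattered among annotated probe sets. In the low block 96 rose and 15 fell (1.45% and 0.227%), whereas among annotated identifiers 19 rose and 28 fell (0.325% and 0.479%). The low block thus held 96 of the 115 increases, and the scattered probe sets held 28 of the 43 decreases. No test of the difference between the blocks was made, and the balance of the scattered calls turned in some alternatives. It was 42 higher and 27 lower without control 4, 40 and 39 without poly(I:C) animal 2, 16 and 16 without poly(I:C) animal 3, 16 and 14 without poly(I:C) animal 5, and 29 and 25 with probe sets under the 25th percentile left out. In the low block more rose than fell in every alternative run.

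The low block was noisier than the rest. Its median within-group SD was 0.17, against 0.078 for the scattered unannotated and 0.069 for annotated probe sets. Its called probe sets had a median absolute log2 difference of 0.45, against 0.27 for the called scattered ones. The median log2 difference of the low block was 0.038 above the array median and 0.043 at or below it, and 61.3% of its 6616 differences were positive. Above the array median 60.8% of them were positive, against 63% for annotated probe sets. At or below it the shares were 61.5% and 35.7%. The scattered probe sets had medians of 0.0097 and -0.019, against 0.022 and -0.019 for annotated ones.

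**Figure D1:**
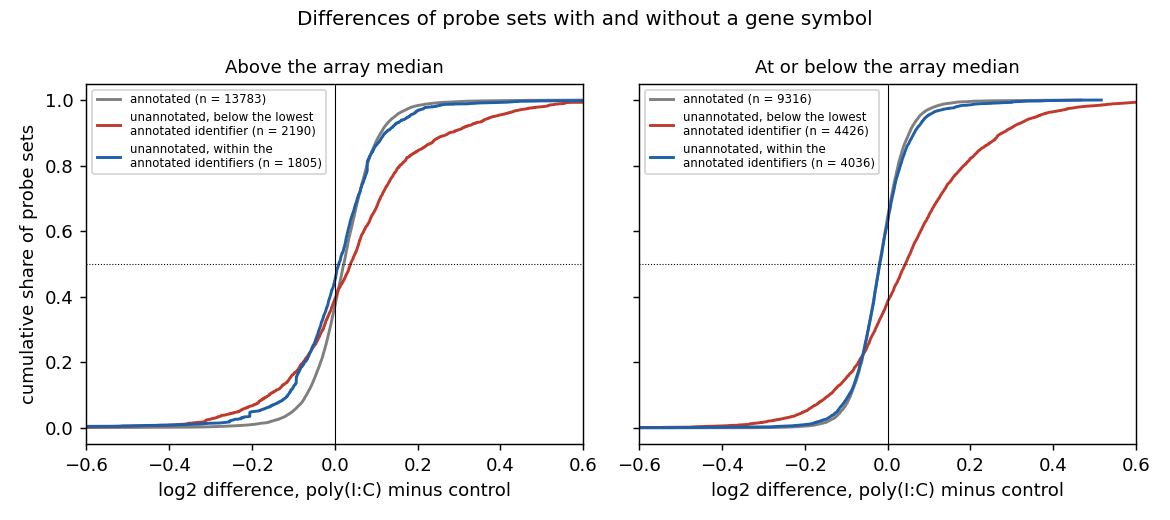
Cumulative share of probe sets (y axis) against the log2 difference, poly(I:C) minus control (x axis), for annotated probe sets and both blocks of unannotated ones, split at the array median. The low block is wider than the others, and its medians, 0.038 and 0.043, lie to the right of theirs. Above the array median its curve crosses the annotated one, with 60.8% of its differences positive against 63%. The scattered unannotated curve at or below the median follows the annotated one.

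The animals were also compared one by one, by the median deviation of a block's probe sets from their own means over the 12 animals. For the bright part of the low block this deviation ran from -0.031 to -0.0001 in controls and from 0.0023 to 0.043 after poly(I:C). All 6 poly(I:C) animals were above all 6 controls. For its dim part it ran from -0.051 to 0.0017 in controls and from -0.018 to 0.065 after poly(I:C), and the groups overlapped. The bright scattered probe sets ran from -0.025 to 0.018 in controls and from -0.025 to 0.030 after poly(I:C), and the dim ones from -0.015 to 0.032 and from -0.026 to 0.0041. The groups overlapped in both.

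**Figure D2:**
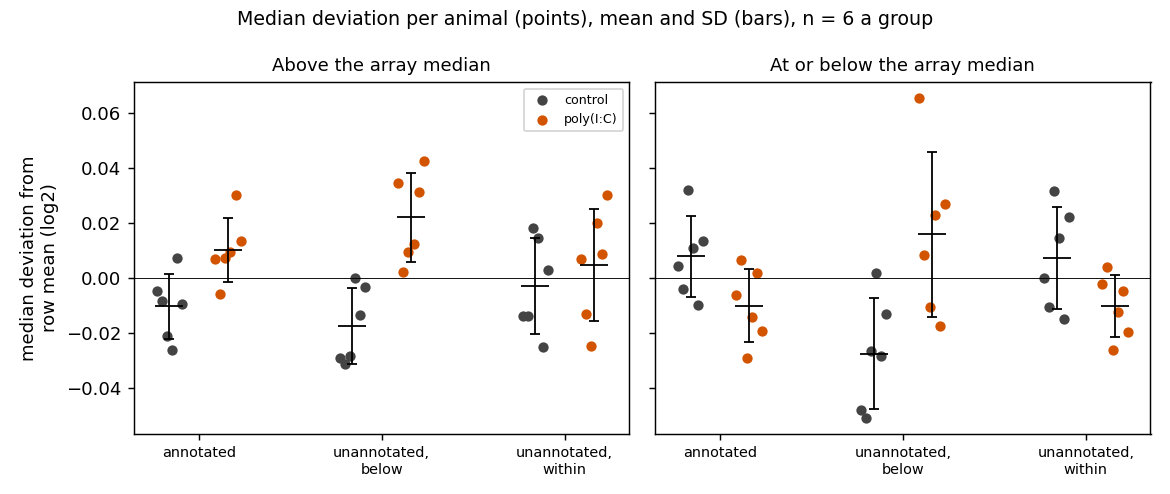
Median deviation from the probe set mean (log2, y axis) in each animal for annotated probe sets and for unannotated probe sets below or within the annotated identifiers, with points for animals and bars for the mean and SD of 6 animals a group. Control and poly(I:C) points are apart only for the bright probe sets of the low block, by deviations under 0.05.

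Increases in the low block were spread over brightness. In 4 equal bins of all probe set means, from dim to bright, 0.784%, 1.85%, 2.42% and 1.55% of its probe sets rose, while 0.107%, 0.247%, 0.345% and 0.388% fell. Of annotated probe sets in the same bins, 0%, 0.151%, 1.31% and 1.21% rose, and 0.15%, 0.188%, 0.516% and 0.347% fell. The 96 of the low block that rose had levels from 2.64 to 10.09 (median 4.92) and log2 differences from 0.15 to 0.97 (median 0.45). Of these, 59 had groups without overlap and 23 reached 1.5-fold. The 15 that fell had differences from -0.18 to -0.60, and 13 had no overlap. A called probe set is likely to have groups apart, so these counts add no support. Over all 35556 probe sets 512 (1.44%) were higher and 215 (0.605%) lower without overlap. Called or not, 83 of the 6616 in the low block were higher and 25 lower without overlap. Each call in this block rests on a probe set whose target is not named.

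**Figure D3:**
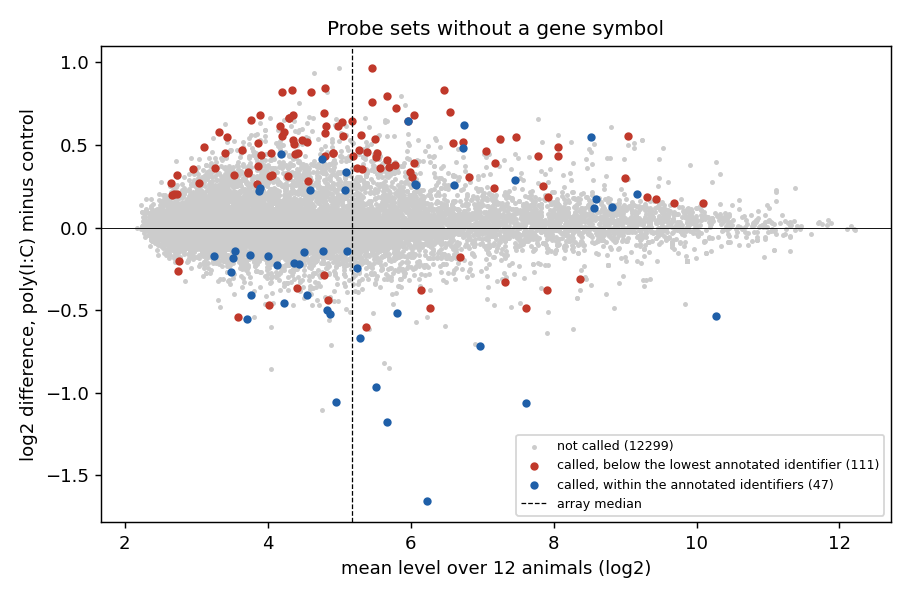
Log2 difference, poly(I:C) minus control (y axis), against mean level over the 12 animals (log2, x axis) for the 12457 unannotated probe sets, with called ones coloured by block and the array median dashed. Called increases come mostly from the low block (96 of 115) and lie on both sides of the median, and the 5 largest decreases all belong to the scattered block.

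The 6 largest increases past the threshold all lay in the low block. Probe set 10340631 had levels of 4.52 to 5.40 (median 4.96) in controls and 5.20 to 6.28 (median 6.09) after poly(I:C). Its log2 difference was 0.97 ± 0.20 (SE, n = 6 each, limma adjusted p = 0.0418). Its groups overlapped, 1 poly(I:C) animal lying inside the control range, and leaving out any of 10 single animals lost the call.

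Probe set 10344115 was the most stable of the 6. It ran from 5.76 to 6.32 (median 6.05) in controls and from 6.49 to 7.17 (median 6.88) after poly(I:C), without overlap. The log2 difference was 0.83 ± 0.12 (limma adjusted p = 0.0133), and it stayed under the threshold in every alternative, the highest adjusted p being 0.0488.

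Probe set 10344542 ran from 4.11 to 4.78 (median 4.35) in controls and from 4.81 to 5.65 (median 5.16) after poly(I:C), a difference of 0.85 ± 0.14 (limma adjusted p = 0.0196). The ranges met closely but did not overlap, and leaving out control 1, 2 or 3 lost the call. Probe set 10340828 ran from 3.69 to 4.23 (median 3.90) and from 4.29 to 5.28 (median 4.82), a difference of 0.83 ± 0.14 (limma adjusted p = 0.0232), and probe set 10338891 from 3.96 to 4.67 (median 4.08) and from 4.76 to 5.37 (median 5.00), a difference of 0.82 ± 0.12 (limma adjusted p = 0.0136). Neither overlapped, and leaving out any of 4 single animals lost the call of 10340828 and none that of 10338891.

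Probe set 10341182 ran from 3.47 to 4.04 (median 3.79) in controls and from 4.00 to 4.98 (median 4.69) after poly(I:C), a difference of 0.82 ± 0.16 (limma adjusted p = 0.0338). Poly(I:C) animal 5 lay inside the control range, and leaving out any of 7 single animals lost the call. Of the 6 increases, 10341182, 10340828, 10344542 and 10338891 had mean levels below the array median.

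The 6 largest decreases past the threshold all lay among annotated identifiers. Since identifiers of this array follow the genome in large part (90.6% of consecutive single-gene probe sets lay on 1 chromosome in the RefSeq gene table of GRCm38.p6), each such probe set was described by the nearest single-gene probe sets before and after it. Probe sets with several symbols were passed over, so a neighbour is not always the closest annotated probe set. An unannotated probe set was placed only where both neighbours lay on 1 chromosome within 500 kb, which was so for 2666 of 5841. The interval is a region around the probe set and does not name its target. It runs over both neighbours, so a small RNA gene named as a neighbour is itself among the genes counted.

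Probe set 10444778 had the lowest p of all probe sets without a symbol. It ran from 5.79 to 6.13 (median 6.06) in controls and from 4.89 to 5.17 (median 5.03) after poly(I:C). The groups were far apart, and the log2 difference was -0.97 ± 0.064 (SE, n = 6 each, limma adjusted p = 4.15e-05), a 1.95-fold fall. It stood between Ddx39b, which encodes an RNA helicase of splicing and mRNA export, and H2-Q1, a histocompatibility gene, in an interval holding 2 small nucleolar RNA genes and 2 microRNA genes. Ddx39b itself had a difference of 0.14 (adjusted p = 0.0724) and H2-Q1 of -0.009.

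Probe set 10461156 ran from 5.91 to 6.41 (median 6.38) in controls and from 4.82 to 5.29 (median 5.11) after poly(I:C), without overlap. The log2 difference was -1.18 ± 0.11 (limma adjusted p = 0.000632), a 2.27-fold fall. It lay between Chrm1, a muscarinic acetylcholine receptor gene, and Snord22, a small nucleolar RNA gene, in an interval with 8 small nucleolar RNA genes. The differences of Chrm1 and Snord22 were 0.004 and -0.10, and neither passed.

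Probe set 10456721 was the brightest of the 6, running from 7.82 to 8.29 (median 8.22) in controls and from 6.71 to 7.52 (median 6.97) after poly(I:C). The log2 difference was -1.06 ± 0.13 (limma adjusted p = 0.00739), a 2.09-fold fall without overlap. It followed Snord58b, whose own difference was -0.09, in an interval with 3 small nucleolar RNA genes.

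Probe set 10450365 ran from 7.17 to 7.54 (median 7.31) in controls and from 6.52 to 6.74 (median 6.59) after poly(I:C), again without overlap. The log2 difference was -0.72 ± 0.064 (limma adjusted p = 0.000632). It lay between Snord52 (difference -0.074) and the heat shock gene Hspa1l (-0.054), and its interval held 2 small nucleolar RNA genes.

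Probe set 10360145 was less certain. It ran from 4.52 to 5.92 (median 5.61) in controls and from 4.27 to 4.81 (median 4.35) after poly(I:C), and control 5 lay inside the poly(I:C) range. The log2 difference was -1.06 ± 0.20 (limma adjusted p = 0.032), and leaving out any of 6 single animals lost the call. Its interval, between Klhdc9 and Alyref2, held 1 small nuclear RNA gene and no small nucleolar RNA gene.

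**Figure D4:**
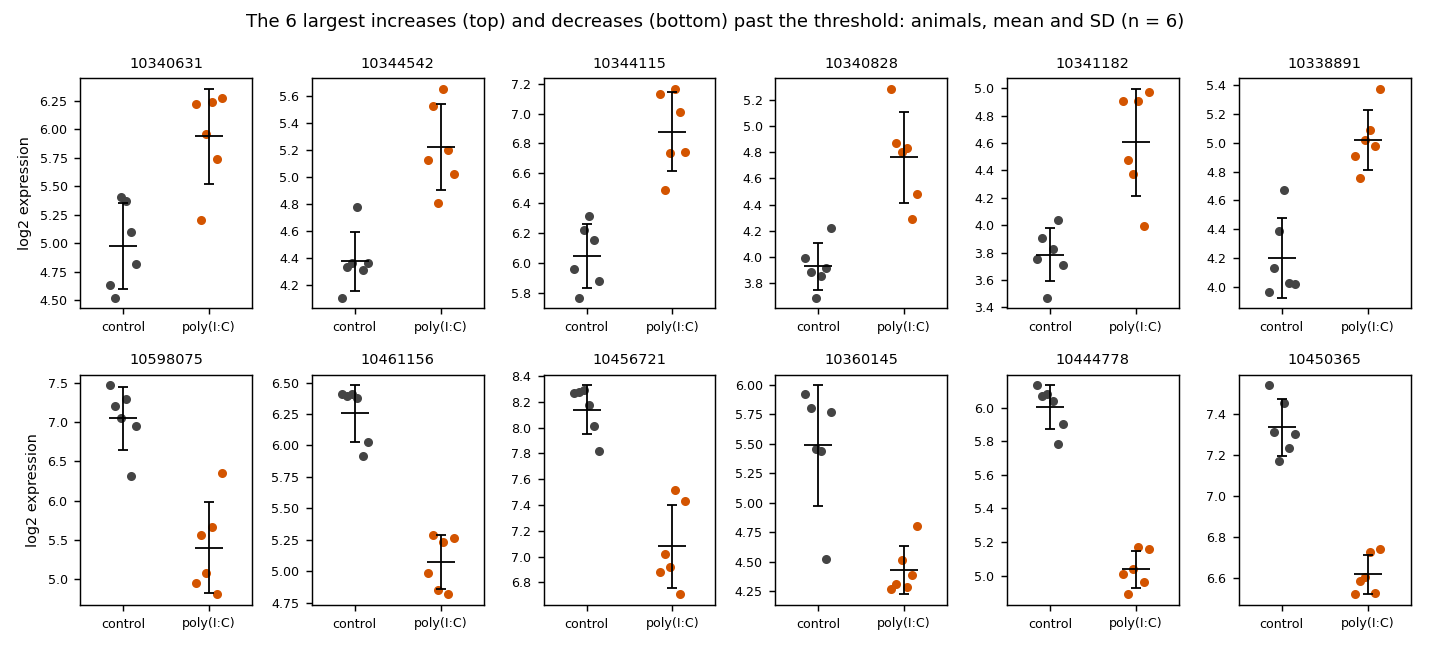
Log2 level (y axis, a separate scale in each panel) in controls and poly(I:C) offspring for the 6 largest called increases and the 6 largest called decreases, with points for animals and bars for mean and SD (n = 6). Groups are apart in 4 of the 6 increases and 4 of the 6 decreases, the overlapping ones being 10340631, 10341182, 10598075 and 10360145.

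Among the other scattered decreases, 7 were chosen for description after their values had been seen, as were the increases described after them. Probe set 10470318 ran from 5.55 to 5.80 (median 5.60) in controls and from 4.74 to 5.12 (median 4.99) after poly(I:C), a difference of -0.67 ± 0.063 (limma adjusted p = 0.000632). The groups did not overlap. It lay between the ribosomal protein gene Rpl7a (-0.036) and Surf2 (0.029), with 4 small nucleolar RNA genes in the interval.

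Probe set 10351041 ran from 4.90 to 5.27 (median 5.08) in controls and from 4.32 to 4.74 (median 4.59) after poly(I:C), a difference of -0.50 ± 0.074 (limma adjusted p = 0.0133), without overlap. It stood between Gas5, a noncoding host gene of small nucleolar RNAs, and Snord47, in an interval with 8 small nucleolar RNA genes. Snord47 had a difference of -1.05 (limma adjusted p = 0.036) and Gas5 one of 0.078 (adjusted p = 0.32), so of these annotated neighbours the small RNA was called and its host was not.

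Probe set 10442493 was dim, at 3.89 to 4.07 (median 4.01) in controls and 3.32 to 3.60 (median 3.40) after poly(I:C), and its groups were apart (difference -0.55 ± 0.055, limma adjusted p = 0.000918). It lay between Caskin1 and Pkd1, with 1 small nucleolar RNA gene in the interval. Probe set 10582562, the brightest of the scattered probe sets that fell, ran from 10.15 to 10.73 (median 10.63) and from 9.86 to 10.13 (median 10.01), a difference of -0.53 ± 0.092 (limma adjusted p = 0.0255). The ranges nearly met, leaving out any of 4 single animals lost the call, and the interval between Dbndd1 and Ccsap held 48 ribosomal RNA genes. Probe sets 10608693 and 10538704 differed by -0.52 ± 0.071 and -0.52 ± 0.083 (limma adjusted p = 0.011 and 0.0173), both without overlap, and neither could be placed in an interval. Leaving out control 2 lost the call of 10538704. Probe set 10488804, between Zfp341 and Eif2s2, differed by -0.45 ± 0.095 (limma adjusted p = 0.0421) with overlapping groups and had no short RNA gene in its interval, and leaving out any of 9 single animals lost the call.

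Over all scattered decreases, 22 of 28 could be placed, and 13 of the 22 (59.1%) had a short RNA gene (small nucleolar, small nuclear, ribosomal, transfer or guide RNA) in their interval, in 12 distinct intervals. Of all 2666 placed probe sets 724 (27.2%) had one. A small nucleolar RNA gene was in the interval of 11 of the 22 (50%), against 371 of 2666 (13.9%). The intervals of the decreases were not longer, with a median of 135.8 kb against 187.7 kb. Among placed increases 5 of 11 (45.5%) had a short RNA gene, and 4 of 11 (36.4%) had a small nucleolar RNA gene. Such genes were thus frequent beside calls in both directions. Counted the other way, 13 of the 724 probe sets with a short RNA gene in the interval fell (1.80%) and 5 rose, and 9 of the 1942 without one fell (0.46%) and 6 rose. These shares are a description, and no test of them was made.

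Most annotated genes on either side of the placed decreases were not called. Of 42 flanking single-gene probe sets, 1 was called lower and 1 higher, and their median difference was 0.018. Of all 23099 annotated probe sets 256 (1.11%) were called in the same fit, so the flanking ones were not called more rarely. Across placed probe sets, the log2 difference correlated with that of the single-gene probe set before it at r = 0.097 and after it at r = 0.096 (n = 2666 each). Consecutive single-gene probe sets correlated at r = 0.135 (n = 16964). These correlations are over probe sets, which share the same 12 arrays and are not independent.

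Increases among annotated identifiers were fewer and smaller, 19 with log2 differences from 0.12 to 0.65 (median 0.26), 10 of them without overlap. Called or not, 29 of the 5841 scattered probe sets were higher without overlap, against 512 of all 35556 (1.44%). Probe set 10398354 was the steadiest of those described. It ran from 8.06 to 8.45 (median 8.30) in controls and from 8.70 to 8.95 (median 8.77) after poly(I:C), a difference of 0.55 ± 0.070 (limma adjusted p = 0.00771), without overlap. It lay between Mir370 and Rian, in the imprinted cluster of maternally expressed noncoding RNAs, and its interval held 11 small nucleolar RNA genes. Mir370 had a difference of 0.072 and Rian one of 0.61 (adjusted p = 0.0502).

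Probe set 10398366, next in the same cluster between AF357355 (0.17) and Mir379 (0.14), ran from 6.25 to 6.86 (median 6.47) in controls and from 6.85 to 7.16 (median 6.91) after poly(I:C). Its difference was 0.48 ± 0.090 (limma adjusted p = 0.0322), and its ranges overlapped slightly. Probe set 10571599, between Sorbs2 and Pdlim3, ran from 5.41 to 6.05 (median 5.62) and from 6.05 to 6.601 (median 6.22), a difference of 0.65 ± 0.12 (limma adjusted p = 0.0314), with ranges that overlapped slightly. The intervals of 10398366 and 10571599 held 11 and 1 small nucleolar RNA genes. Leaving out any of 7 single animals lost the call of 10398366, and any of 6 that of 10571599. Probe set 10406452 could not be placed, and the interval of 10384566 held no short RNA gene. The smaller increases 10406452 (0.44 ± 0.092, limma adjusted p = 0.0418) and 10384566 (0.42 ± 0.092, adjusted p = 0.0489) had overlapping groups, and leaving out any of 9 single animals lost the call of each.

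The largest decrease of all lay in a stretch around annotated probe sets of the mitochondrial genes COX2 and ATP6, which encode subunits of the respiratory chain and the ATP synthase. Probe set 10598075 ran from 6.31 to 7.48 (median 7.14) in controls and from 4.80 to 6.35 (median 5.32) after poly(I:C). Control 5, the lowest control, lay below poly(I:C) animal 6, the highest of its group, and the other animals were apart. The means were 7.05 ± 0.41 and 5.40 ± 0.58 (SD, n = 6), a log2 difference of -1.65 ± 0.25 (SE, limma adjusted p = 0.0136) or 3.15-fold.

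No other probe set of that stretch was called. It held 30 unannotated probe sets, from 10598013 to 10598091, of which 24 lay above the array median and 10 had lower means after poly(I:C). The 11 with levels over 10 had differences of at most 0.078 in size. Next in size of the lower ones were 10598053 at -0.46, 10598023 at -0.40 ± 0.12 (limma adjusted p = 0.104) and 10598073 at -0.32, and 10598081 lay higher by 0.32. The sources used here do not say which of these probe sets read a mitochondrial RNA. The RefSeq table lists 37 mitochondrial genes, 22 of them transfer RNAs, 13 coding for proteins and 2 for ribosomal RNA.

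**Figure D5:**
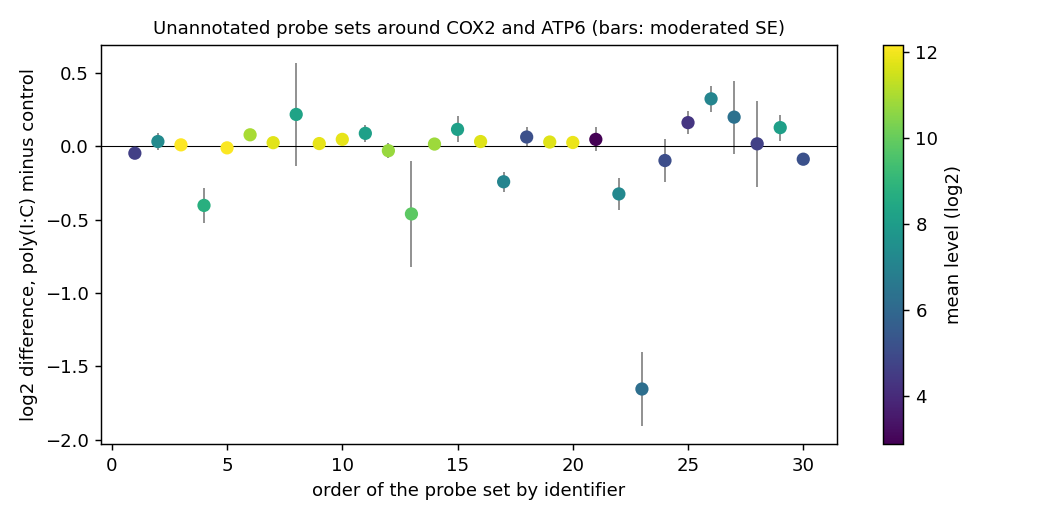
Log2 difference, poly(I:C) minus control (y axis), of the 30 unannotated probe sets around COX2 and ATP6 in order of identifier (x axis, from 1 to 30), coloured by mean level, with moderated SE as bars. One probe set, 10598075, stands at -1.65, and the brightest ones lie near 0.

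The 3 brightest unannotated probe sets were not called. Probe set 10608691, between Rn28s1 and Rn4.5s by identifier, stood at 12.17 to 12.26 in controls and 12.15 to 12.24 after poly(I:C) (difference -0.017 ± 0.027, limma adjusted p = 0.787). Probe sets 10445185 and 10598020 differed by -0.0089 ± 0.026 and 0.0093 ± 0.023. All 3 had overlapping groups and an SE under 0.03.

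The longest unbroken run of unannotated probe sets among annotated identifiers held 134, from 10563893 to 10564159, with a median level of 9.66. Many hold the same values, since only 55 profiles were distinct. Lower means after poly(I:C) were found in 119 of the 134, or 46 of the 55 distinct profiles. None was called lower, although 43 had a lower mean with an unadjusted limma p under 0.05, copies included. In either direction 46 of the 134 had such a p, against 6493 of all 35556 probe sets (18.3%). The only call in the run was an increase, of probe set 10563895, by 0.62 ± 0.13 (limma adjusted p = 0.0454). It ran from 6.18 to 6.85 (median 6.39) in controls and from 6.77 to 7.44 (median 7.00) after poly(I:C), overlapping, and leaving out any of 8 single animals lost the call. By the median deviation over distinct profiles, controls ran from -0.15 to 0.16 and poly(I:C) animals from -0.38 to 0.27, so the animals of both groups spread widely. In all, 435 unannotated probe sets shared all 12 values with another one, and the 158 calls stand for 157 distinct profiles.

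Since the unannotated probe sets could not be assigned to introns, genes known for introns kept in nuclear RNA were read beside them from annotated probe sets. The probes of a gene lie along its exons, so its level cannot tell kept introns from more spliced RNA. Whether the RNA of these genes was unspliced was not tested. Of 21 such genes, many of them splicing factors and kinases that act on them, 19 were measured. At its brightest probe set each of the 19 had a higher mean after poly(I:C) (median log2 difference 0.16), and 2 rose. These were Ogt, an enzyme that adds sugar to nuclear proteins, by 0.18 ± 0.037 (limma adjusted p = 0.0366), and Nktr by 0.24 ± 0.050 (adjusted p = 0.0454). Dimmer probe sets of Srsf5, Tra2a and Ccnl2 had differences of 0.21, 0.25 and 0.0185, and that of Tra2b was lower, at -0.026 (limma adjusted p = 0.784). By the brightest probe sets, the mean level of the 19 genes per animal was 7.48 to 7.67 in controls and 7.67 to 7.83 after poly(I:C). These 2 ranges came close without overlapping. This list was chosen with results of these animals known and is no independent evidence. Of 10 noncoding RNAs kept in the nucleus 5 were measured by a probe set of their own, all with higher means (median 0.39) and 0 called at their brightest probe set, among them Malat1 by 0.43 ± 0.12 (adjusted p = 0.0967). A dimmer probe set of Snhg11 was called, at 0.37 (limma adjusted p = 0.0269). The bright unannotated probe sets of the same fit had a median of 0.024, and the part of either list in their values was not tested.

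The count of calls depended on single animals. The 158 unannotated calls became 34, 31, 33 and 78 without controls 1, 2, 3 and 6, and 37, 50, 95 and 54 without poly(I:C) animals 1, 4, 5 and 6, but 292 without poly(I:C) animal 2. The 96 increases of the low block became 15 to 61 without control 1, 2, 3, 5 or 6 or poly(I:C) animal 1, 4, 5 or 6, and 174 without poly(I:C) animal 2. The 19 scattered increases became 1 to 10 without control 1, 2, 3 or 6 or poly(I:C) animal 1, 4 or 6, and 42 and 40 without control 4 and poly(I:C) animal 2. The 28 scattered decreases became 10 to 16 without control 1, 2, 3 or 6 or poly(I:C) animal 1, 3, 4, 5 or 6. Without controls 5 and 6 together, which had the highest striatal marker levels, 63 were called, 41 higher and 22 lower. In that fit 15 scattered probe sets were called lower, not all of them among the 28, of which 10 could be placed, each with a short RNA gene in the interval. Probe sets 10444778, 10461156, 10456721, 10450365, 10470318 and 10442493, and the increases 10344115 and 10398354, were called under every alternative run for them.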

How the data were processed

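The authors deposited 1 log2 value per probe set and array, as the range of the values and their nearly equal array medians show. RMA and Partek 6.6 stand in the submitters' processing notes, with no role given. The labels' protocols name both a 3' IVT and a whole-transcript kit. The sources used here give neither the annotation behind the values nor their genome build. Normalisation as in RMA compresses differences near the floor. The number of arrays limits the precision.

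All 35556 probe sets were fitted with limma 3.58.1 in R 4.3.3 (lmFit, then eBayes) as poly(I:C) minus control, two-sided, no covariates, and p-values were adjusted over all of them (Benjamini-Hochberg). Unless stated, adjusted p-values and SE (moderated) come from this fit. Probe sets with no symbol in the platform annotation, which can be old, were kept apart, and 21185 of 21218 single symbols matched the RefSeq gene table of GRCm38.p6, used for names and neighbours. Gene lists took each gene by its brightest probe set. Named were the 6 largest increases and decreases past the threshold and the 3 brightest. The members and lists were chosen with earlier results of these data known. Alternatives were the replicate number as a block, other scalings, moderation, filters and splits, and leaving out each animal. The fit was tested on simulated data. Python 3.11.15 with pandas 2.3.3 and matplotlib 3.10.9 made summaries and plots.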

Additional observations from a re-analysis of the deposited data

Results flagged for a closer look

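At 2 of the described probe sets, control 5 stood apart from the other controls by a gap wider than Dixon's 95% limit, which chance exceeds in about 1 group in 20. Each of the many described probe sets holds 2 groups, so a few such gaps could arise by chance. At probe set 10360145 it had a level of 4.523, with the nearest control at 5.439. At probe set 10538704 it had a level of 4.76, with the nearest control at 5.119. Control 5 also had the highest striatal marker level (7.45), and the part of this in either value was not tested.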

How the results depend on the processing

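With the replicate number as a block, 50 unannotated probe sets were called, 33 higher and 17 lower; above the array median 17 and 11, at or below it 16 and 6, in the low block 31 and 7, and among annotated identifiers 2 and 10. Same-numbered animals correlated at -0.084 to 0.069 in their deviations. These values show no strong pattern shared by number, but they cannot exclude a pairing. With no moderation of the variance 32 were called, 18 higher and 14 lower (above 12 and 8, at or below 6 and 6, low block 12 and 3, scattered 6 and 11). Without controls 5 and 6 the same counts were 63, 41 and 22, with 20 higher above, 21 and 8 at or below, 35 and 7 in the low block, and 6 and 15 scattered. With probe sets under the 25th percentile left out, 26 fell above the median, 25 fell in the low block, and 29 scattered rose and 25 fell, which turned their balance. Split at the median of the unannotated, 29 fell above, and 36 rose and 14 fell at or below. With the low block left out of the fit, 49 scattered rose and 54 fell; the annotated calls likewise numbered 256 in the fit of all probe sets and 653 in a fit of annotated ones alone. Quantile normalisation moved the bright median to 0.0017.

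Leaving out 1 animal gave 31 to 292 calls, 17 to 214 higher and 14 to 78 lower; above the median 9 to 94 and 9 to 28, at or below it 6 to 120 and 4 to 50, in the low block 15 to 174 and 3 to 39, and scattered 1 to 42 and 10 to 39, with more higher than lower without control 4 or poly(I:C) animal 2 or 5. The medians then ran from 0.0174 to 0.0273 above and from -0.0046 to 0.0044 at or below. No described probe set changed direction while called. Signal near the floor limits the 8462 dim probe sets.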
